A study of Mus musculus with 11 samples.

Results

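The collagens and the proteoglycans around them, including aggrecan (Acan), were read in whole adrenal glands of mINDY-KO mice and WT littermates. The group held every gene whose symbol is a collagen chain (Col, a number, a and a number), together with Acan, Vcan, Dcn, Bgn, Lum, Fmod, Hspg2, Fn1 and Sparc. Of these, 45 genes (71 probes) were named on the array, out of 16593 named genes, and 29 of them (36 probes) counted as detected, out of 9302 detected genes. A gene counted as detected where at least 1 of its probes had a detection p under 0.05 in at least 5 of the 10 mice. The detection p gives the chance that a probe without a target would be as bright. Detected members were thus selected on these detection p values, which are given here as a description. The group was also named for Acan with its difference between genotypes already known, so the values for Acan are a description as well and its p is no independent support.

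Collagens are triple helices of 3 chains, and the chain types decide whether the helices pack into fibrils, form the sheet of the basement membrane or decorate the surface of other fibrils. Proteoglycans are core proteins that carry long sugar chains. Small leucine-rich proteoglycans such as decorin sit on collagen fibrils and regulate their assembly, perlecan (Hspg2) lies in basement membranes, and aggrecan and versican bind hyaluronan and hold water in the matrix. The adrenal has a collagenous capsule around the cortex and a dense network of sinusoids, whose endothelium rests on a basement membrane.

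The mINDY-KO mice were homozygous for a deletion allele of Slc13a5, which encodes the plasma membrane citrate transporter called mINDY. The allele was made with an Hprt1-Cre transgene, and the line was crossed back to C57B/6J more than 10 times. Both groups were male littermates of heterozygous matings, 12 to 16 weeks old, on standard chow, with 5 mice each, and the 11 arrays included a repeat array of WT replicate 1 that was averaged with the first. The WT group size in the study's methods is that of the WT arrays, whereas the labels name a pair of these as WT replicate 1. Nothing in the labels states that the mice of a group came from separate litters, so p-values measure the spread between these mice.

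Levels are given in log2 units above the mean of all probes on the array, after each array was scaled to the same SD. A negative level lies below that mean. The scaling stretches levels on arrays of small SD and shrinks them on arrays of large SD, most for probes far from the mean. Values and orders of mice below hold on this scale, and they were not examined without it. Log2 fold changes are differences on the same scale unless another normalization is named. Levels of different probes are not compared, since probes differ in brightness. No background was subtracted, so fold changes of dim probes can be smaller here than after background correction. With background-corrected quantile normalization (neqc), the log2 fold change of Col3a1 was 0.53 against 0.27 here. That of Mmp19 was 0.46 against 0.15, and that of Bcan was -0.19 in both. The median signal of an array ranged from 150 to 202 in WT mice and from 122 to 238 in mINDY-KO mice, and 13260 to 13538 probes were detected per array. The arrays of mINDY-KO replicates 3 and 4 had the lowest medians (127 and 122). The single probe for Slc13a5 was not detected on any array (detection p 0.0714 to 0.357), so the deletion could not be checked by its transcript. Markers of the adrenal cortex (8 of 8) and of chromaffin cells (6 of 7) were detected. The precision is limited by the number of mice, not by a read depth.

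Of the 29 detected members, 26 were detected in all 10 mice, and 16 of the 45 members on the array were not detected. By family, 22 of 37 collagen chains and 7 of the 8 other members were detected. Versican (Vcan), the hyaluronan-binding relative of aggrecan, was detected in 0 mice by its single probe. A silent probe does not show that a transcript is absent. Col3a1, for example, had a probe detected in 10 mice and another detected in 0. Fn1, Col6a3, Col6a4, Col6a5, Col8a1, Col12a1, Col20a1, Col21a1 and Col22a1 had no probe with that symbol and were not analysed here.

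Few members lay near the threshold of 5 mice. Just inside it were Col23a1, a transmembrane collagen, with 5 mice (4 WT and 1 mINDY-KO), Col9a1 with 6 mice (3 and 3) and Col28a1 with 8 mice (4 and 4). Just outside it were Col8a2 and Col11a2 with 4 mice each (1 WT and 3 mINDY-KO for both), Col2a1 with 3, Col17a1 with 2 and Col11a1 with 1. The remaining 11 members were detected in 0 mice, among them Col5a2 and Col10a1 (1 probe each) and Col4a6 (3 probes). Col2a1 and Col10a1 encode the main fibril collagen and the growth plate collagen of cartilage.

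**Figure D1:**
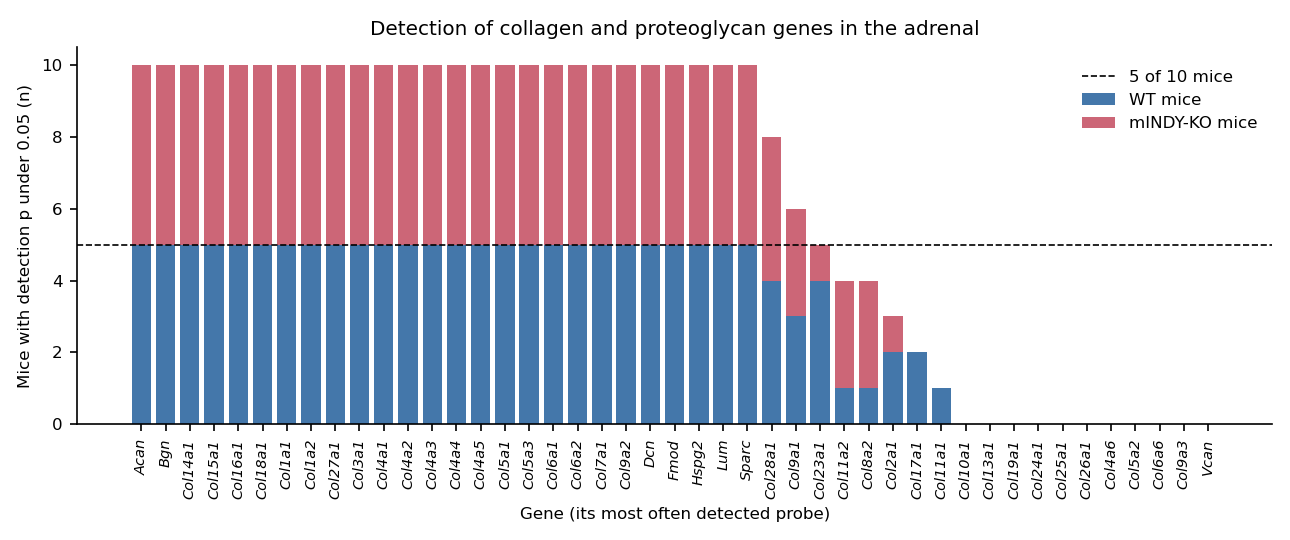
Number of mice (y axis, of 10) in which the most often detected probe of each of the 45 genes (x axis) had a detection p under 0.05, with WT mice in blue and mINDY-KO mice in red. The bars fall from 10 mice to 0 over a few genes, with Col28a1, Col9a1 and Col23a1 just inside the dashed line at 5 mice.

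Acan, the large chondroitin sulfate proteoglycan best known from cartilage, had the lowest mINDY-KO to WT ratio of the group. The brighter of its 2 probes read 1.00, 1.09, 0.53, 0.58 and 0.52 in WT replicates 1 to 5. In mINDY-KO replicates 1 to 5 it read -0.25, 0.11, -0.10, 0.16 and -0.21. Every mINDY-KO mouse lay below every WT mouse, and WT replicates 1 and 2 stood above the other WT mice. The group means were 0.75 ± 0.28 for WT and -0.058 ± 0.19 for mINDY-KO (SD, n = 5 each). The log2 fold change was -0.80 (SE 0.125, 95% confidence interval -1.07 to -0.54), a ratio of 0.573, with an adjusted p of 0.0597 in limma. The 2 arrays of WT replicate 1 read 0.95 and 1.05.

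The adjusted p of Acan stood close to the threshold of 0.05 and crossed it with the processing. In limma it was 0.0339 when each array was centred on its 75th percentile, 0.0371 with a stricter detection p of 0.01, and 0.0296 without mINDY-KO replicate 2. It was 0.0442 with detection in all 10 mice and 0.0196 with an intensity trend and robust fitting. Under every other alternative it stayed above 0.05. These included quantile normalization with or without background correction, the deposited Z scores, array weights and the mean of both probes. Over all 24 alternatives it ranged from 0.0196 to 0.269, and the log2 fold change kept its sign in 24 of 24, from -1.15 to -0.65.

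The dimmer Acan probe gave a smaller difference. It read 0.69, 0.78, 0.13, 0.05 and 0.24 in WT replicates 1 to 5, and -0.19, -0.18, 0.06, -0.01 and -0.30 in mINDY-KO replicates 1 to 5. The highest mINDY-KO mouse lay above the lowest WT mouse, so the groups overlapped. The log2 fold change was -0.50 (SE 0.134, adjusted p = 0.209). WT replicates 1 and 2 were the highest on both probes.

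Few other cartilage genes were detected. Of 10 cartilage markers on the array, 3 were detected, Hapln1 (the link protein that fixes aggrecan to hyaluronan) in 8 mice, Sox9 (a transcription factor of chondrocytes and other cells) in 6 and Col9a1 in 6. Below the threshold of 5 mice, Col11a2 was detected in 4 and Col2a1 in 3. Matn1, Matn3, Comp, Cnmd and Chad were detected in 0 mice. The mean level of the chromaffin markers was 4.28 and 4.04 in WT replicates 1 and 2, which had the highest Acan levels, and 3.63 to 3.86 in the other WT mice. Over mINDY-KO mice it was 3.41 to 4.11, a range that overlapped the WT mice. It was highest in mINDY-KO replicate 5 (4.11) and lowest in mINDY-KO replicate 2 (3.41), whose Acan levels were -0.21 and 0.11. Of the 6 detected chromaffin markers 1 was higher and 5 were lower on average in mINDY-KO mice. In limma, 1 of the 6 had an unadjusted p under 0.05. Of all detected genes 4055 were higher and 5247 lower, and 4.33% and 7.01% had such a p. The part of these markers in the Acan difference was not tested. In a whole gland, fewer cells of a type and less RNA per cell cannot be told apart.

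The promoter of Acan is shown because this gene carries the largest difference of the group. The sequence is the 250 bases before the RefSeq start, chr7:79052976-79053225 in GRCm38.p6, plus strand, written from 5′ to 3′. Capitals mark every GGGCGG (the GC box bound by Sp1) and CCAAT on both strands, which read CCGCCC and ATTGG on the other.
Acan: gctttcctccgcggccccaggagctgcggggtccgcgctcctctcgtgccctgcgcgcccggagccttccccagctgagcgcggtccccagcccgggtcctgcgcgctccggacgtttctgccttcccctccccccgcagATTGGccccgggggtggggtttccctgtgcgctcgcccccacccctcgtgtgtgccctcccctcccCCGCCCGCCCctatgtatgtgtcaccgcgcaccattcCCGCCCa
The window held 3 GC boxes, a pair of which overlap, 1 CCAAT box and 0 TATAAA, and 74.4% of its bases were G or C, against a median of 52.4% over all windows. Of 32851 windows of this length in RefSeq, 32.7% held a GC box, 33.8% a CCAAT box and 12.4% a TATAAA. Of the 29 detected members, 24 matched a gene in that table, with 27 windows, of which 16 held a GC box, 10 a CCAAT box and 1 a TATAAA. These are matches of letters, and no measurement here bears on the promoter itself.

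Sparc, a calcium-binding glycoprotein that binds collagen, was the only member other than Acan with an unadjusted p under 0.01. Its brighter probe read 5.64, 5.47, 5.36, 5.57 and 5.42 in WT replicates 1 to 5, and 5.65, 5.52, 5.85, 6.03 and 5.85 in mINDY-KO replicates 1 to 5. On this scale mINDY-KO replicates 3, 4 and 5 lay well above all WT mice, replicate 1 lay level with the highest WT mouse and replicate 2 lay among them. Sparc is far above the array mean, so this order depends on the scaling by array SD and was not examined without it. The means were 5.49 ± 0.11 and 5.78 ± 0.20 (SD, n = 5 each), and the log2 fold change was 0.29 (SE 0.095, adjusted p = 0.309). The second Sparc probe gave 4.28 ± 0.18 and 4.30 ± 0.21 and a log2 fold change of 0.026 (SE 0.107, adjusted p = 0.959). mINDY-KO replicates 3 and 4 were also the arrays of lowest median signal, and without both the brighter probe gave 0.18 at an unadjusted p of 0.0847 in limma. With the mean of both probes the log2 fold change of Sparc was 0.16 at an unadjusted p of 0.132 in limma. The 2 probes of Sparc thus gave different sizes, and the difference between probes was not tested.

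**Figure D2:**
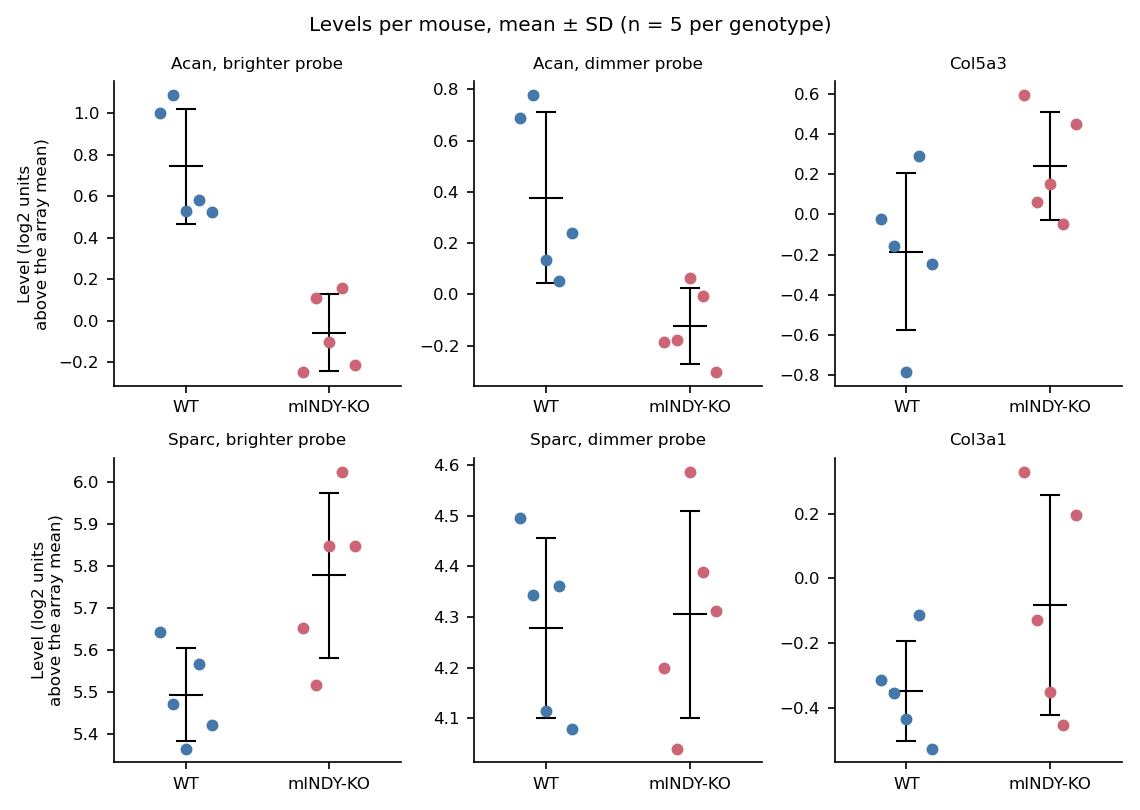
Level per mouse for both probes of Acan, both probes of Sparc, Col5a3 and Col3a1 in WT (blue) and mINDY-KO mice (red). The y axis is in log2 units above the array mean after each array was scaled to the same SD, with a separate range in each panel. Bars give the mean ± SD of 5 mice, with replicates 1 to 5 from left to right. The genotypes separate in the brighter Acan probe and overlap in the other 5 panels.

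The fibrillar collagens build the fibrils that give tissue its tensile strength. Of 11 chains on the array 6 were detected, of which 5 stood higher on average in the mINDY-KO group and 1 lower, with a median log2 fold change of 0.15. None passed the adjusted p. Col5a3, a chain of the type V collagen that regulates fibril diameter, had the smallest p of them.

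Col5a3 read -0.02, -0.16, -0.78, 0.29 and -0.25 in WT replicates 1 to 5, and 0.59, 0.06, 0.15, -0.05 and 0.45 in mINDY-KO replicates 1 to 5. WT replicate 4 lay above 3 of the mINDY-KO mice and WT replicate 3 far below all others. The means were -0.18 ± 0.39 and 0.24 ± 0.27 (SD, n = 5 each), and the log2 fold change was 0.43 (SE 0.168, adjusted p = 0.380). This gene no longer had an unadjusted p under 0.05 without WT replicate 3, without mINDY-KO replicate 1 or without mINDY-KO replicate 5.

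Col3a1, the single chain of type III collagen of vessels and loose connective tissue, read -0.31, -0.35, -0.44, -0.11 and -0.53 in WT replicates 1 to 5. In mINDY-KO replicates 1 to 5 it read 0.33, -0.13, -0.35, -0.46 and 0.19. The groups overlapped, and mINDY-KO replicates 1 and 5 stood above the rest. Its log2 fold change was 0.27 (SE 0.137, adjusted p = 0.505). It was 0.16 without mINDY-KO replicate 1 and went up to 0.36 without mINDY-KO replicate 4. Without the arrays of mINDY-KO replicates 3 and 4 together it was 0.48 at an unadjusted p of 0.00134 in limma (adjusted p = 0.297). Its unadjusted p was also under 0.05 with quantile normalization (with or without background correction), 75th percentile centring or array weights, and without WT replicate 4, mINDY-KO replicate 3 or mINDY-KO replicate 4. Col1a1 and Col1a2, the 2 chains of type I collagen, gave 0.23 (SE 0.147, adjusted p = 0.618) and 0.082 (SE 0.097, adjusted p = 0.805). Col1a1, Col3a1 and Col5a3 had the same highest mINDY-KO mouse, replicate 1 (0.85, 0.33 and 0.59), and the same highest WT mouse, replicate 4 (0.74, -0.11 and 0.29).

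Col27a1, a fibrillar collagen of cartilage and other tissues, was the exception within this class. It read 0.09, -0.24, -0.45, -0.41 and -0.06 in WT replicates 1 to 5, and -0.44, -0.36, -0.47, -0.48 and -0.24 in mINDY-KO replicates 1 to 5. WT replicates 1 and 5 lay well above all mINDY-KO mice, WT replicate 2 lay level with the highest of them and the other WT mice lay among them. Its log2 fold change was -0.18 (SE 0.101, adjusted p = 0.547). Col5a1, the chain shared by most type V collagen, had the narrowest interval of the 6, with a log2 fold change of 0.018 (95% confidence interval -0.13 to 0.17).

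Type IV collagen forms the network of basement membranes, with Col4a1 and Col4a2 as the common chains and Col4a3, Col4a4 and Col4a5 as the chains of specialised membranes such as that of the kidney glomerulus. Of 6 chains 5 were detected, and Col4a6 was not. Col4a1 read 4.07, 3.95, 4.14, 4.05 and 4.10 in WT replicates 1 to 5, and 4.19, 4.03, 4.25, 4.17 and 4.20 in mINDY-KO replicates 1 to 5. As scaled, mINDY-KO replicates 1, 3, 4 and 5 lay above all WT mice and replicate 2 lay among them, an order not examined without the scaling by array SD. Its log2 fold change was 0.11 (SE 0.069, adjusted p = 0.607). Col4a2 gave 0.14 (SE 0.091, adjusted p = 0.609). The RefSeq starts of Col4a1 and Col4a2 lie 21 bases apart on opposite strands in GRCm38.p6. The specialised chains gave log2 fold changes of -0.11 for Col4a3 (adjusted p = 0.632), -0.11 for Col4a5 (adjusted p = 0.752) and -0.0082 for Col4a4 (adjusted p = 0.986).

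Perlecan (Hspg2), the heparan sulfate proteoglycan of the same membranes, read 4.07, 4.31, 4.36, 4.37 and 4.32 in WT replicates 1 to 5. In mINDY-KO replicates 1 to 5 it read 4.51, 4.37, 4.57, 4.58 and 4.09. On the scaled levels mINDY-KO replicates 1, 3 and 4 lay clearly above all WT mice, replicate 2 lay level with the highest of them and replicate 5 stood near the lowest WT mouse. This order, too, depends on the scaling by array SD and was not examined without it. Perlecan's log2 fold change was 0.14 (SE 0.098, adjusted p = 0.647). Without the arrays of mINDY-KO replicates 3 and 4 it was 0.041, without WT replicate 1 it was 0.087, and without mINDY-KO replicate 5 it was 0.22 at an unadjusted p of 0.0187 in limma (adjusted p = 0.385). Endothelial markers, whose cells contribute to these membranes, were detected for 10 of 10 genes. Their mean level was 2.24 to 2.37 in WT and 2.15 to 2.27 in mINDY-KO mice. On average 2 of 10 genes were higher in mINDY-KO mice, and 2 of 10 had an unadjusted p under 0.05 in limma. Of all detected genes 4.33% were higher and 7.01% lower at that p. The part of the endothelial markers in the values of type IV collagen and perlecan was not tested.

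The small leucine-rich proteoglycans were all detected (4 of 4), and their log2 fold changes ran from -0.087 to 0.096. Decorin (Dcn), which binds fibrils and transforming growth factor beta, read 5.32, 5.18, 5.01, 5.04 and 5.25 in WT replicates 1 to 5, and 4.67, 5.04, 5.36, 5.42 and 5.15 in mINDY-KO replicates 1 to 5. On this scale the mINDY-KO mice lay on both sides of the WT mice, and replicate 1 was the lowest of all. The log2 fold change was -0.032 (SE 0.123, adjusted p = 0.955), and the second Dcn probe gave 0.13 (SE 0.101, adjusted p = 0.690), of the opposite sign.

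Biglycan (Bgn), a close relative of decorin, read 5.06, 4.94, 5.30, 5.04 and 5.00 in WT replicates 1 to 5, and 4.75, 4.91, 5.23, 5.49 and 5.31 in mINDY-KO replicates 1 to 5. On this scale the spread was again wider in mINDY-KO mice (SD 0.30) than in WT mice (SD 0.14), with replicate 1 lowest. For genes this far above the array mean the scaling by array SD itself adds to or takes from the spread. The spread without that scaling was not examined. The log2 fold change was 0.072 (SE 0.125, adjusted p = 0.876), and it took the opposite sign under quantile normalization with or without background correction but kept it under centring on the 75th percentile and with the deposited Z scores. Lumican (Lum) gave 0.096 (SE 0.175, adjusted p = 0.884) and fibromodulin (Fmod) -0.087 (SE 0.100, adjusted p = 0.802). The second Fmod probe, detected in 5 mice, gave 0.023.

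Type VI collagen makes the beaded filaments that link cells to the fibrils. Col6a1 was read by 3 detected probes, the brightest of which gave 5.17, 4.84, 4.54, 4.83 and 4.88 in WT replicates 1 to 5, and 4.81, 4.54, 4.88, 5.01 and 4.78 in mINDY-KO replicates 1 to 5. The ranges of the genotypes overlapped over most of their length. The 3 probes gave log2 fold changes of -0.046, -0.032 and 0.0051, none with an adjusted p below 0.919. Col6a2, the partner chain, gave -0.042 (SE 0.109, adjusted p = 0.924).

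The 9 other detected collagens had log2 fold changes between -0.085 and 0.092, and each interval included 0. Among those that sit on the surface of fibrils, Col9a1 gave 0.092, Col14a1 0.053, Col9a2 -0.011 and Col16a1 -0.065. The chains of vascular and epithelial basement membrane zones gave 0.081 for Col15a1, -0.036 for Col18a1 (the precursor of endostatin; -0.064 with its second probe) and -0.045 for Col7a1 of the anchoring fibrils. Col23a1 and Col28a1, both near the detection threshold, gave -0.029 and -0.085. Col9a2 differed by 0.54 between the 2 arrays of WT replicate 1, where the median absolute difference over members was 0.099.

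Across the 29 detected members, 0 passed an adjusted p of 0.05 in limma in either direction, beside 0.0108% of all detected genes that were higher and 0.0108% that were lower. At an unadjusted p under 0.05, 2 members were higher in mINDY-KO mice (Sparc and Col5a3, 6.9%), beside 4.33% of all detected genes. By the same measure 1 member was lower (Acan, 3.45%), beside 7.01%. The 2 genotypes did not overlap for 1 member lower in mINDY-KO mice (Acan), beside 1.38% of all detected genes, and for 0 members higher, beside 0.753%. With 29 genes a single gene is 3.45%, and Sparc counts here by its brighter probe only. The split of all detected genes at an unadjusted p under 0.05 depended on the scaling, with 403 higher and 652 lower here and 670 higher and 314 lower when arrays were centred on the 75th percentile.

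The median log2 fold change over the members was -0.0082, with 14 higher and 15 lower, beside -0.019 over all detected genes with 4055 higher and 5247 lower. For the 22 collagens it was -0.0098 and for the 7 other members 0.072. The median SD within a genotype was 0.167 for members and 0.138 for all detected genes. The 95% confidence interval, without adjustment, reached a median of 0.209 to either side of the estimate for members. Log2 differences smaller than this were not resolved for a typical member, and larger ones could still miss the adjusted p. Between mice the widest ranges over all 10 were those of Col5a3 (1.38), Acan (1.33), Lum (0.97) and Col1a1 (0.93), and the narrowest that of Col23a1 (0.22).

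**Figure D3:**
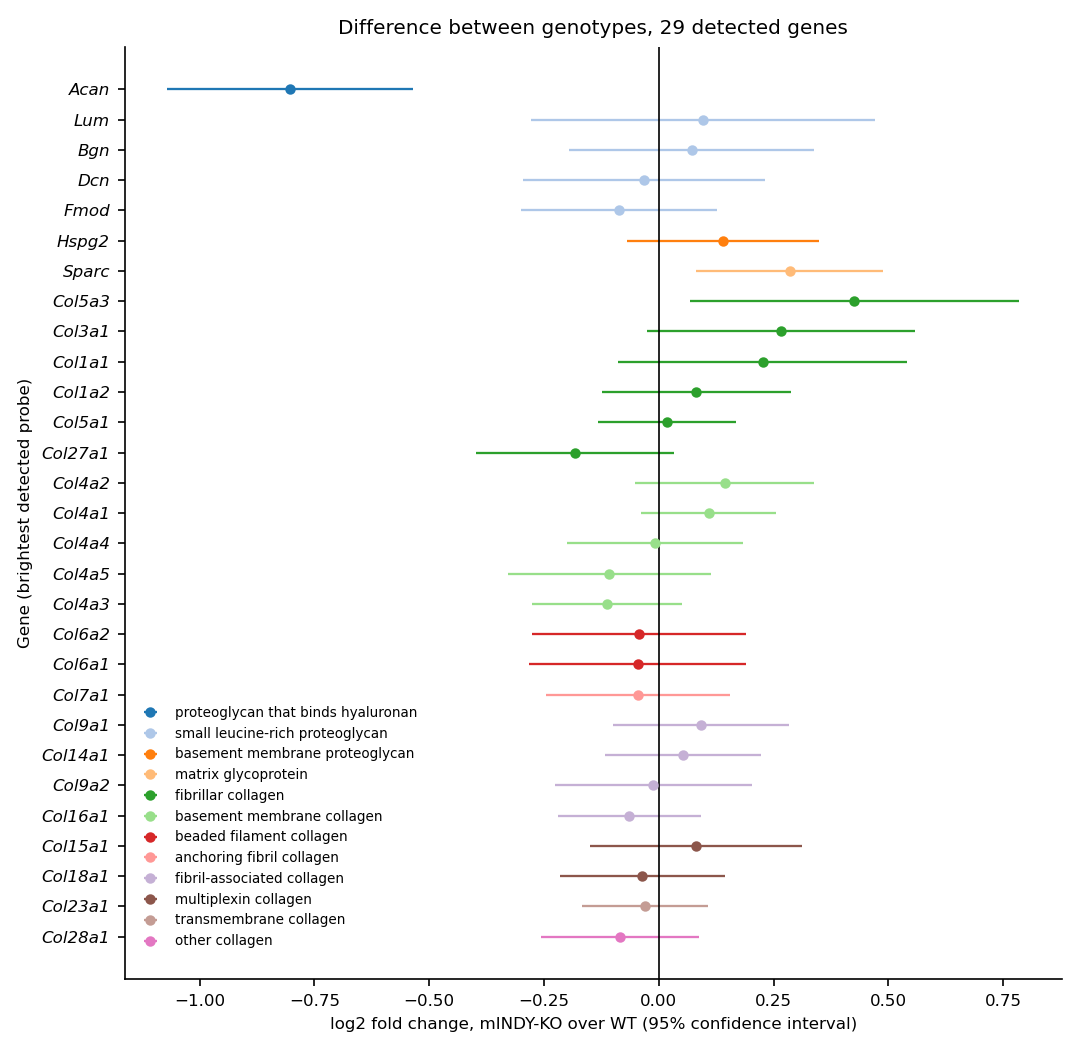
Log2 fold change of mINDY-KO over WT mice (x axis) with its 95% confidence interval for each of the 29 detected genes (y axis), coloured by role. The interval lies below 0 for Acan and above 0 for Sparc and Col5a3, and the other 26 intervals include 0.

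**Figure D4:**
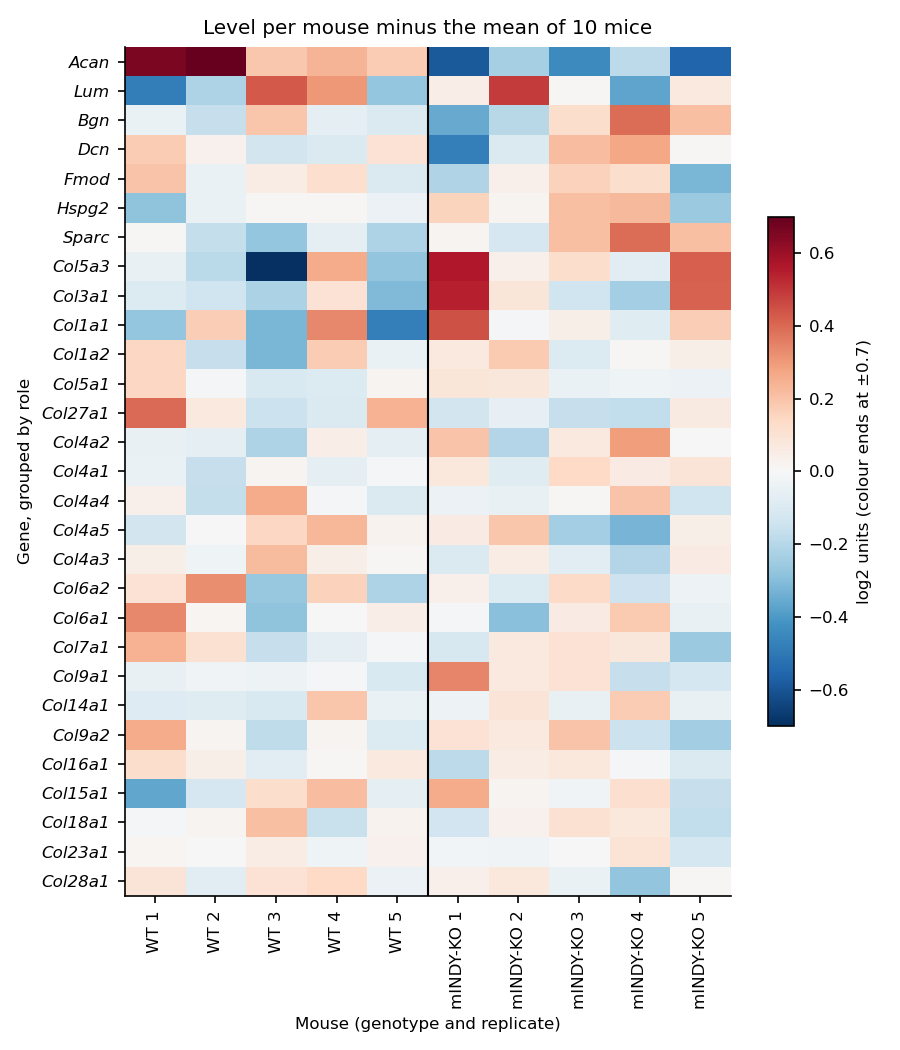
Level of each of the 29 genes (rows, grouped by role) in each mouse (columns, WT left of the line), with red above and blue below. Values are differences from the mean of the 10 mice in log2 units, after each array was scaled to the same SD. Acan is above its mean in all 5 WT mice and below it in all 5 mINDY-KO mice, and mINDY-KO replicate 1 holds high values of Col5a3, Col3a1 and Col1a1 beside low values of Dcn and Bgn.

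The 6 lists of genes that act on or with these proteins were read in the same fit, and none of their 96 detected genes passed the adjusted p. The splits below stand beside 4055 higher and 5247 lower over all detected genes. Of 17 detected genes for collagen folding and cross-linking, 13 were lower and 4 higher, with a median of -0.10, beside -0.019 over all detected genes. P3h4 (-0.22, adjusted p = 0.384) and P3h3 (-0.18, adjusted p = 0.389), which belong to the prolyl 3-hydroxylase family, had the smallest p, followed by the lysyl oxidase family member Loxl1 (-0.15, adjusted p = 0.471). P3h3 ran from 0.93 to 1.19 in WT and from 0.71 to 0.91 in mINDY-KO mice, with no overlap. Of all detected genes, 1.38% were lower in mINDY-KO mice without overlap.

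Of 15 genes for collagen processing and turnover, 6 were higher and 9 lower, with a median of -0.0059. The metalloproteinase inhibitor Timp2 had the smallest p (-0.31, adjusted p = 0.297), ahead of the metalloproteinases Mmp19 (0.15, adjusted p = 0.514) and Mmp13 (-0.25, adjusted p = 0.609). Of 13 laminins, nidogens and other basement membrane genes, 5 were higher and 8 lower, with a median of -0.021. The laminin chain Lamc3 ran from 1.22 to 1.34 in WT and from 0.85 to 1.13 in mINDY-KO mice. It did not overlap either, beside the same 1.38% of all detected genes. Lamc3 had the smallest p (-0.27, adjusted p = 0.214), followed by Lama1 (-0.24, adjusted p = 0.346) and Lamb2 (-0.20, adjusted p = 0.583).

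Of 14 partners of aggrecan and hyaluronan, 4 were higher and 10 lower, with a median of -0.059. Those of smallest p were Chst11, a chondroitin sulfotransferase (-0.21, adjusted p = 0.369), Bcan, the brain relative of aggrecan called brevican (-0.19, adjusted p = 0.385), and Chpf, a chondroitin polymerising factor (-0.14, adjusted p = 0.614). Their levels overlapped between genotypes. Hapln1 gave 0.016.

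Of 25 other matrix glycoproteins 14 were higher and 11 lower, with a median of 0.0077. Spon2, a secreted matrix protein, had the smallest p of any gene in the lists (0.37, SE 0.099, adjusted p = 0.207), followed by Mfap4 (0.16, adjusted p = 0.558) and Fbln2 (-0.15, adjusted p = 0.563). Of 12 receptors for collagen and matrix, 3 were higher and 9 lower, with a median of -0.041. Itga6 (-0.28, adjusted p = 0.447) and Itgb4 (-0.20, adjusted p = 0.477), which pair as a laminin receptor, and dystroglycan, Dag1 (-0.24, adjusted p = 0.448), had the smallest p.

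**Figure D5:**
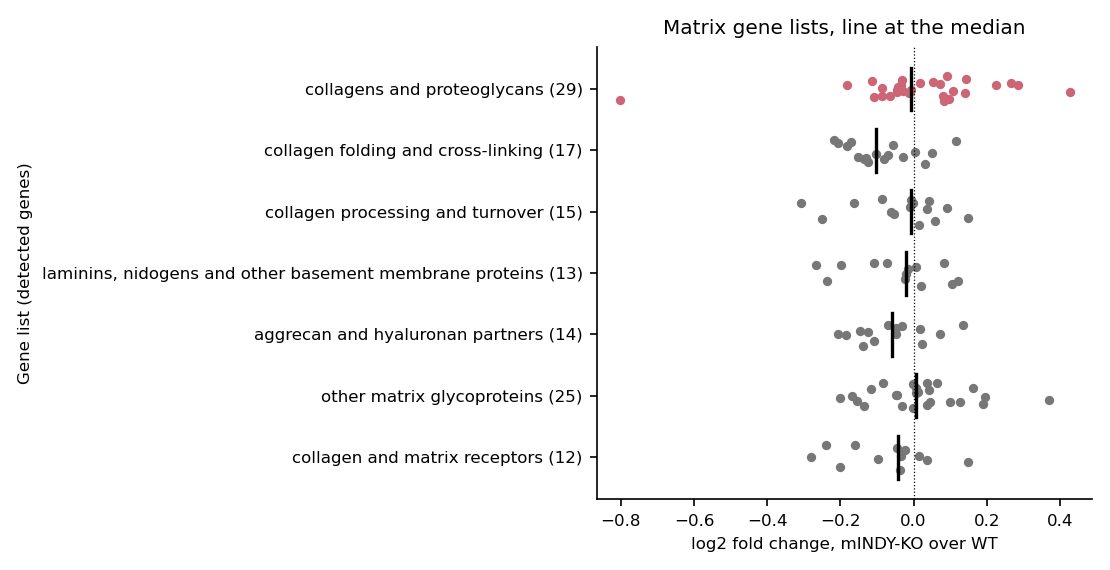
Log2 fold change of mINDY-KO over WT mice (x axis) for each detected gene (points, spread at random in height) of the collagen and proteoglycan group in red and of 6 companion lists in grey, with the number of genes in brackets and a line at each median. Medians run from -0.10 for collagen folding and cross-linking to 0.0077 for other matrix glycoproteins, and Acan is the point at -0.80.

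Mean marker levels of the cells that make or border matrix overlapped between the genotypes. The mean level of fibroblast markers (9 of 10 detected, Clec3b not) was 1.21 to 1.42 in WT and 1.22 to 1.43 in mINDY-KO mice. Lum and Dcn belong to both that list and the group. Vascular smooth muscle and pericyte markers (8 of 9 detected, Cnn1 not) gave 0.42 to 0.50 in WT and 0.32 to 0.45 in mINDY-KO mice, with 2 of the 8 higher in mINDY-KO mice. Of the 9 fibroblast markers 3 were higher. In limma 1 fibroblast marker and 1 smooth muscle and pericyte marker had an unadjusted p under 0.05. Adipocyte markers (4 of 7 detected) gave -0.65 to -0.25 in WT and -0.59 to 0.62 in mINDY-KO mice, and mINDY-KO replicate 5 held the value of 0.62. All 4 detected adipocyte markers were higher on average in mINDY-KO mice, 2 of them at an unadjusted p under 0.05. Macrophage markers (6 of 6 detected) gave 1.44 to 2.03 in WT and 1.73 to 2.20 in mINDY-KO mice, and 6 of 6 were higher on average in mINDY-KO mice, 0 of them at an unadjusted p under 0.05. At an unadjusted p under 0.05 in limma, 4.33% of all detected genes were higher and 7.01% lower. The part of these cell types in the values of any member was not tested.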

How the data were processed

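Total RNA of whole adrenals was hybridised by the authors to Illumina mouse bead chips. The deposited table held, per probe and array, the fluorescence intensity, exported from GenomeStudio 2011.1 without normalization, and its detection p-value. A second deposited table held the authors' Z score of each probe, which equalled the log10 intensity minus the array mean over the array SD to within 0.0102. Probe symbols came from the platform annotation, with 1719 of 25697 probes unnamed. Here Z scores were recomputed from the intensities and multiplied by 1.57, the mean SD of the log2 intensities. The 2 arrays of WT replicate 1 were averaged. Probes with a detection p under 0.05 in at least 5 of 10 mice were kept (13341), and each gene was read by its brightest kept probe. Genotypes were compared with the two-sided moderated test of limma 3.58.1 (R 4.3.3), with Benjamini-Hochberg adjustment over every kept probe, checked on simulated data. No term for litter or batch was fitted. Values for every mouse were given for the 6 members of smallest p and the 4 of highest mean level among the rest, and up to 3 genes of smallest p were named per companion list. Members and lists were chosen with earlier results of these data known. Alternatives covered normalization, detection filter, probe choice, the repeat array, weights, a replicate block and each mouse left out.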

Additional observations from a re-analysis of the deposited data

Results flagged for a closer look

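In 3 of 90 groups of 5 mice, 1 mouse stood apart from the other 4 by more than 0.71 of the range of its group, and chance alone marks about 1 in 20. Hspg2 read 4.07 in WT replicate 1, and 4.31 to 4.37 in the other WT mice. Col14a1 read -0.38 in WT replicate 4, and -0.68 to -0.62 in the others. Col4a3 read -0.23 in WT replicate 3, and -0.48 to -0.41 in the others.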

How the results depend on the processing

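With 5 mice a group, log2 differences within about 0.2 were not resolved for a typical member, even by an interval without adjustment. Larger differences also failed the adjusted p, such as that of Col5a3 (0.43, adjusted p = 0.380 in limma). No member passed an adjusted p of 0.05, but 1 member, Acan, did under centring on the 75th percentile, a detection p under 0.01, detection in all 10 mice, and an intensity trend with robust fitting. Leaving out 1 mouse at a time gave 0 to 1 members past it (1 without mINDY-KO replicate 2), 1 to 4 higher at an unadjusted p (1 without WT replicate 3 or mINDY-KO replicate 1, 4 without WT replicate 4) and 1 to 2 lower (2 without WT replicate 3 or 4, with Col27a1 as the addition). The cause was not tested. Signs turned in members whose log2 fold change lay between -0.11 and 0.096. Quantile normalization turned Bgn (-0.0051) and Col4a4 (0.022), background-corrected quantile normalization (neqc) Bgn (-0.0053), Col4a4 (0.054) and Col6a2 (0.00062), and 75th percentile centring Col23a1 (0.0068), Col4a4 (0.026) and Col9a2 (0.031). Array weights turned Col4a4 (0.016), the repeat array alone Col9a2 (0.043) and the mean over probes Dcn (0.047). Without 1 mouse, Bgn ran from -0.017 to 0.169, Col18a1 from -0.079 to 0.013, Col4a4 from -0.059 to 0.055, Col5a1 from -0.0058 to 0.056, Col6a1 from -0.123 to 0.033, Col6a2 from -0.114 to 0.034, Col7a1 from -0.091 to 0.014, Col9a2 from -0.062 to 0.052, Dcn from -0.104 to 0.084 and Lum from -0.013 to 0.216. Leaving out both arrays of lowest median signal, chosen after seeing the data, turned Bgn (-0.076) and Col4a5 (0.044) and gave Acan -0.86 (adjusted p = 0.169). Col3a1 was added at an unadjusted p and Sparc lost. With the replicate number as a replicate block, 0 members passed the adjusted p and the same 3 the unadjusted one, and Acan had an adjusted p of 0.152. Same-numbered mice correlated at -0.304 to -0.108 over all kept probes, after the group means were subtracted. These values cannot show whether the numbers mark a shared litter or day.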
